A study of Mus musculus with 6 samples.

Results

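The 9 genes *Sall1*, *Spi1*, *Irf8*, *Maf*, *Mef2a*, *Mef2c*, *Runx1*, *Bhlhe41* and *Irf5*, of the 31053 genes in the count matrix, encode transcription factors with roles in microglia. Some of them act in other macrophages too. The 9 genes were chosen by symbol and not by a rule on their values, though with earlier results of these data known. Their unique molecular identifiers (UMIs, each standing for 1 captured RNA molecule) were followed across groups of cells gated on other genes. The cells were CD45+ leukocytes sorted from the tumor-bearing hemisphere of female SCID mice, which lack functional T and B cells, after U87 human glioma cells had been placed in the brain. 3 mice carried U87 cells that express IL-33 (U87 IL-33) and were taken 3 weeks after implantation, and 3 mice carried U87 cells with the empty pcDNA 3.1 vector (U87 pcDNA) and were taken at 6 weeks. All mice were 8 weeks old at implantation by the protocol, and the age entry of the labels reads 6 to 8 weeks. IL-33 and time cannot be told apart in this layout, and the host has innate immune cells only.

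The matrix pooled all 6 libraries, and no sample label names the suffixes 1 to 6 on its barcodes. Cells were assigned to groups of mice from labels only, so U87 IL-33 and U87 pcDNA were not compared here and no p-value was computed. The matrix was treated as 1 sample that mixes both groups. Intervals in brackets are 95% intervals for counting error only (exact Poisson for a level, exact conditional binomial for a ratio), and the range over suffixes with at least 20 cells of a group is given as a description, in which any difference between the groups of mice is included. The 40411 barcodes held 105560763 UMIs, 9745192 to 24393841 per suffix, and 38751 barcodes passed the filters of the study (over 200 and at most 2500 genes, under 5% mitochondrial UMIs). Median depth ranged from 1536 to 3503 UMIs per cell over the suffixes. 3793 barcode sequences occurred under more than 1 suffix among passing cells.

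PU.1, the product of *Spi1*, is the ETS-family factor that opens the myeloid program, and it acts with IRF8 in microglia as in other macrophages. RUNX1 takes part in blood cell formation and in the early life of microglia. SALL1, a zinc-finger factor, is known in the adult immune system mainly from microglia, where it keeps the resting program. MEF2A and MEF2C bind together with PU.1 at microglial enhancers, and MEF2C restrains inflammatory responses. c-MAF (*Maf*) belongs to the macrophage maturation program and is high in macrophages of the brain borders. BHLHE41 is a basic helix-loop-helix repressor, and IRF5 drives inflammatory cytokine genes.

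Levels are given as CPM, in which the UMIs of 1 gene, added up over a group, are divided by the total UMIs of that group and scaled to counts per 1e6 UMIs. Levels were compared between groups of cells for 1 gene at a time, since the capture of 3′ ends differs between genes. The 9 genes held 279668 UMIs, 0.293% of those of passing cells. Microglia-like cells, gated on *Tmem119*, *P2ry12*, *Gpr34* and 5 further microglial genes with at least 1000 UMIs in all, numbered 28541 or 73.7% of passing cells. By their UMIs of other gene sets they were split into 11537 homeostatic cells, 2103 cells high in *Ccl2* and *Ccl12*, 3896 high in *Apoe*, *Spp1* and *Ifitm3* (called Apoe high), 464 high in both sets (Apoe and Ccl2 high), 380 high in *Lpl*, *Fam20c*, *Mmp12* and *Fabp5* (Lpl high), 461 high in MHC class II genes, 307 with interferon-response genes, 224 in the cell cycle, and 9169 that lay between the homeostatic and the high gates. The 8476 cells of the microglial gate under 1000 UMIs and 693 cells of no gate stayed outside the comparisons. The high gates cut through continuous shares, with 832 microglia-like cells just under the *Apoe* gate and 642 just over it.

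Of the other groups, 139 cells were monocyte-like (*Ly6c2*, *Ccr2*, *Plac8*), 98 passed the monocyte gate without *Ly6c2* and were led by *H2-Aa*, *H2-Eb1* and *Ccr2*, and 86 were *Cd209a*-positive dendritic cell-like. NK cell-like, granulocyte-like and choroid plexus epithelium-like cells numbered 228, 128 and 259, the last a type that a CD45 sort should leave out. A group of 27 cells, which would otherwise have fallen in the monocyte and dendritic gates, was set apart after its values were seen, because it held *Siglech*, *Ccr9*, *Spib* or *Runx2* and almost no *Lyz2* (2 UMIs). It is called the Siglech and Ccr9 group. The gate for border macrophages went against its name. Of the genes it read, *Mrc1* had 500 UMIs in all passing cells, *Pf4* 25, *Cbr2* 34 and *Cd163* 10. Of the border macrophage markers that the gate did not read, *Lyve1* had 0 and *F13a1*, which monocytes also express, 476. The 76 cells that the gate took are called Mrc1-gated cells here. They were led by *Mrc1*, *Ccl7*, *Ccl8* and *Saa3*, 50 of them carried suffix 5, and microglial markers made up 0.666% of their UMIs against 1.495% in microglia-like cells and 0.118% in monocyte-like cells.

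The 250 bases before the annotated start of *Sall1*, *Mef2c*, *Irf8* and *Mef2a* are shown because the first pair was lower in Apoe high microglia-like cells and the second pair was not lower there by 1.5 times. They are from RefSeq promoters of GRCm38.p6, the build of the files (mm10), written 5′ to 3′ on the gene's own strand, with capitals marking matches on either strand to the letters GAGGAA (ETS, the class of PU.1), GAAA, any 2 bases and GAAA (IRF), CTA, any 4 bases and TAG (MEF2), TGTGGT (RUNX), TGCTGAC (MAF) or CACGTG (E-box). *Sall1* lies on the minus strand at chr8:89044163-89044412, *Mef2c* on the plus strand at chr13:83503784-83504033, *Irf8* on the plus strand at chr8:120736108-120736357 and *Mef2a* on the minus strand at chr7:67372859-67373108.
Sall1: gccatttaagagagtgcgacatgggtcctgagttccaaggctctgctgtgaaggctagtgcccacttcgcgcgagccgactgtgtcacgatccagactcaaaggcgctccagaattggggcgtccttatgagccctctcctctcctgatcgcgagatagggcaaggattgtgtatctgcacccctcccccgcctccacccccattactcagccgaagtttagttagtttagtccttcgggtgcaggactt
Mef2c: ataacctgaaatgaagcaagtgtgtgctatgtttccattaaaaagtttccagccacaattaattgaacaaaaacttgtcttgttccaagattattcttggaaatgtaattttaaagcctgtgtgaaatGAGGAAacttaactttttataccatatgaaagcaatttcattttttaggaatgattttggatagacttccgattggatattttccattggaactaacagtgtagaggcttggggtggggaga
Irf8: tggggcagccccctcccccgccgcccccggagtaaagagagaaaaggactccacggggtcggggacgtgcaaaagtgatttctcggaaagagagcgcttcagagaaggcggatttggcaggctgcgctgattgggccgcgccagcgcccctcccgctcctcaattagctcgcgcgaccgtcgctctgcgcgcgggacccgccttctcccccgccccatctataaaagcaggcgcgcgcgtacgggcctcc
Mef2a: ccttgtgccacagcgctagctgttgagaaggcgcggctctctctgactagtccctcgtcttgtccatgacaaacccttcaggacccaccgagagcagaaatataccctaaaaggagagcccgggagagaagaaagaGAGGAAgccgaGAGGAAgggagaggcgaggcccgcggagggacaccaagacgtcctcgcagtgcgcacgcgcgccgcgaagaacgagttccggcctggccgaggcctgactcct
The *Mef2c* window held 1 ETS match and the *Mef2a* window held 2, whereas none of the 6 motifs occurred in the windows of *Sall1* and *Irf8*, which says only that these letters are not there. Over all 32851 promoters of the same length, 23.3% held the ETS letters, 2.98% the IRF letters, 3.20% the MEF2 letters, 14.0% the RUNX letters, 3.81% the MAF letters and 6.02% the E-box. The table gave 13 promoters for 7 of the 9 genes (*Spi1* and *Maf* had no entry), and 6 of the 13 held a match, namely the ETS letters in *Mef2a*, *Mef2c* and *Runx1* and the E-box in *Runx1* and *Bhlhe41*. GC content was 33.6% in the *Mef2c* window and 67.2% in that of *Irf8*.

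In microglia-like cells all 9 genes were detected under every suffix. *Sall1* stood at 78.0 CPM (76.1 to 79.9), with a lowest suffix value of 72.7, a median of 74.5 and a highest of 91.0. *Maf* had the widest spread relative to its level, from 84.9 over a median of 100 to 139 CPM, a range wider than the 1.5-fold by which states are called below. *Mef2c* ranged from 576 to 680 CPM with a median of 639, and *Irf8* from 737 to 839 with a median of 776. These ranges are the measure against which the groups below were read. *Spi1* lay between 396 and 432 CPM, *Irf5* between 260 and 284, *Mef2a* between 262 and 304, *Bhlhe41* between 186 and 245, and *Runx1* between 149 and 193. The plot of levels by group shows these values for every gene.

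**Figure D1:**
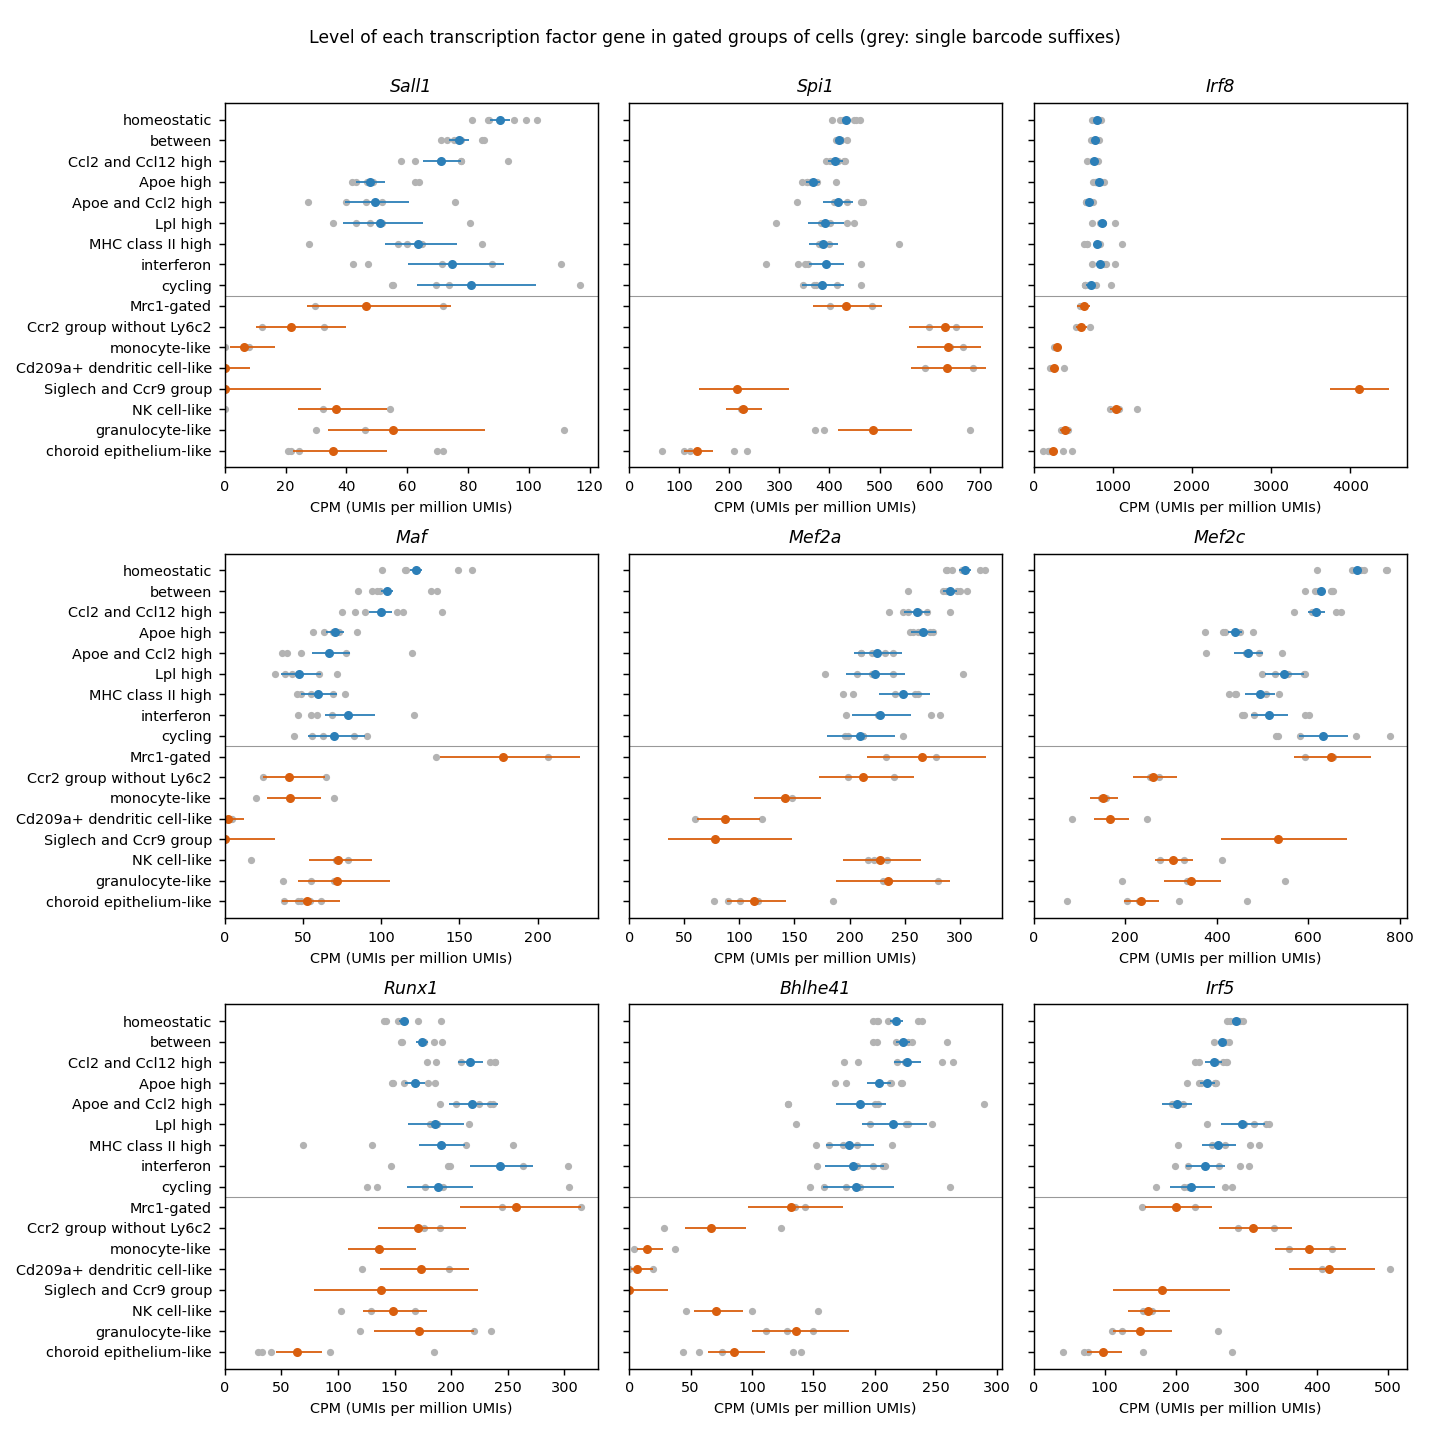
Level of each of the 9 genes (horizontal axis, CPM) in gated groups of cells (vertical axis). Blue points are states of microglia-like cells and orange points other groups, bars are 95% Poisson intervals, and grey points are single suffixes with at least 20 cells of the group. *Sall1* and *Bhlhe41* sit near 0 in monocyte-like and dendritic cell-like cells, and *Irf8* reaches 4106 CPM in the Siglech and Ccr9 group.

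*Sall1* and *Bhlhe41* separated microglia-like cells from monocyte-like cells most widely among the 9 genes. *Sall1* had 4 UMIs in the 139 monocyte-like cells, 6.43 CPM (1.75 to 16.5) against 78.0 CPM, 12.1-fold lower with a ratio of 0.0825 (0.0225 to 0.211). In the suffixes with enough monocyte-like cells, 4 and 6, it was 0 and 8.01 CPM, below every suffix of microglia-like cells. *Bhlhe41* had 9 UMIs there, 14.5 CPM (6.62 to 27.5) against 217 CPM, 15.0-fold lower with a ratio of 0.0668 (0.0306 to 0.127). Among all 6183 genes of this comparison, 2.33% had a lower ratio than *Sall1* and 1.54% a lower one than *Bhlhe41*. In *Cd209a*-positive dendritic cell-like cells *Sall1* had 0 UMIs of 450720, a ratio of 0 (0 to 0.1049). With 3 counts over the group as the floor it would be 11.7-fold lower than in microglia-like cells. *Bhlhe41* had 3 UMIs there, a ratio of 0.0307 (0.00634 to 0.0898).

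The few UMIs of *Sall1* in other types went with the microglial RNA found in those cells, and those of *Bhlhe41* did so in part. In the 126 monocyte-like cells with under 0.25% of their UMIs from microglial markers, *Sall1* had 0 UMIs of 552395 and *Bhlhe41* had 1. The interval of *Sall1* there reached 6.68 CPM against 78.0 in microglia-like cells. With 3 counts as the floor it would be 14.4-fold lower. NK cell-like cells as a whole showed *Sall1* at 36.8 CPM (24.2 to 53.5) and *Bhlhe41* at 70.8 CPM, but the 118 of them with little microglial RNA held 0 UMIs of each gene. Choroid plexus epithelium-like cells likewise went from 35.6 CPM of *Sall1* in all 259 cells to 0 UMIs in the 189 with little microglial RNA, while *Bhlhe41* there kept 22.1 CPM (10.1 to 41.9). After each cell was thinned to 500 UMIs, 3.52% of microglia-like cells had a *Sall1* UMI against 1.16% of choroid plexus epithelium-like cells, a type that should lack it, and 0% of monocyte-like cells, which allows up to 2.62%. Unthinned shares were 19.8%, 7.72% and 2.88%, at median depths of 2904, 1394 and 4432 UMIs. The monocyte-like ratios of both genes were the ones most open to the limit of 2500 genes, which was the only guard against doublets applied to the counts, after the study had gated out doublets in the sort. Without it they were 0.339 for *Sall1* and 0.256 for *Bhlhe41*, and without suffix 4 the ratio of *Bhlhe41* was 0.0116.

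A second set, *Mef2c*, *Irf8*, *Maf* and *Mef2a*, was lower but plainly present in monocyte-like cells. *Mef2c*, the MADS-box factor, stood at 151 CPM (122 to 185), 148 and 159 in its 2 suffixes, against 632 CPM in microglia-like cells, 4.18-fold lower. *Irf8* stood at 298 CPM (256 to 344) against 788 CPM, 2.65-fold lower. *Maf* was 2.497-fold lower at 41.8 CPM, with suffix values of 20.02 and 70.04, the latter close to the lowest microglia-like suffix. *Mef2a* was 2.03-fold lower, at 142 CPM against 287. Monocyte-like cells were deeper, at a median of 4432 UMIs against 2904, and types were not compared at like depth. From homeostatic cells of 1000 to 2000 UMIs to those of 4000 or more, *Mef2a* went from 372.6 to 270.5 CPM and *Irf8* from 925.9 to 737.9. *Sall1* changed little there, from 93.15 to 91.13 CPM. With *Sall1* and *Bhlhe41*, 6 of the 9 genes were at least 2-fold lower in monocyte-like cells, where 19.7% of all genes tested were, and 0 were at least 2-fold higher, where 20.6% were. The median log2 ratio was -1.32 over the 9 genes and 0.03 over all genes. The call on *Irf8* rests on where the Siglech and Ccr9 group is put: with its cells kept in the gates the ratio was 0.928 in place of 0.378. That ratio was 0.548 without the limit on genes. *Mef2a* was no longer 2-fold lower without the gene limit (0.547), with stricter gates (0.517), with gates on shares (0.515), with suffixes weighted equally (0.506) or without suffix 2 (0.5045) or 5 (0.504). *Maf* was no longer 2-fold lower after thinning to 1000 UMIs (0.546) or without suffix 6 (0.5365), and had a ratio of 0.256 without suffix 4.

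*Cd209a*-positive dendritic cell-like cells showed the same 6 genes at least 2-fold lower than microglia-like cells, beside 21.7% of all genes, and 0 at least 2-fold higher, beside 22.5%. Cells of the Siglech and Ccr9 group were taken out of this gate too. The ratios with them kept were not computed, so the call on *Irf8* here may also rest on that step. *Maf* was nearly absent with 1 UMI (ratio 0.0213, 0.000538 to 0.118). *Mef2c* stood at 166 CPM, *Irf8* at 262 and *Mef2a* at 86.5. The median log2 ratio was -1.73 over the 9 genes and 0.11 over all genes. Cells of the monocyte gate without *Ly6c2* lay between monocyte-like and microglia-like cells for *Irf8* at 602 CPM (533 to 677), *Mef2a* at 212 and *Bhlhe41* at 67.1. Their 69 cells with little microglial RNA held 1 *Sall1* UMI, but 11 *Bhlhe41* UMIs, 35.8 CPM (17.9 to 64.1).

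*Spi1* and *Irf5* ran the other way. *Runx1* was lower in monocyte-like cells by less than 2-fold and level in dendritic cell-like cells. *Spi1* stood at 637 CPM (576 to 703) in monocyte-like cells, 640.5 and 668 in suffixes 6 and 4, all above the highest microglia-like suffix of 432, with a ratio of 1.53 (1.38 to 1.69). It was 634.5 CPM in dendritic cell-like cells and 600 CPM (444 to 793) in the 53 granulocyte-like cells with little microglial RNA, whereas the NK cell-like and choroid plexus epithelium-like cells of that kind had 28.0 and 17.2 CPM. The Siglech and Ccr9 group, which carries no cell type name, had *Spi1* at 216 CPM (139.5 to 318), or 25 UMIs. Of these, 22 lay in its 10 cells with under 0.25% of UMIs from microglial markers, at 417 CPM (261 to 631). The level of the whole group thus does not describe cells that are alike in *Spi1*. *Irf5* stood at 388 CPM (340 to 440) in monocyte-like cells and 417 in dendritic cell-like cells against 269 in microglia-like cells, ratios of 1.44 (1.26 to 1.64) and 1.55 (1.34 to 1.79). *Runx1* was 137 CPM in monocyte-like and 173 CPM in dendritic cell-like cells against 173 in microglia-like cells, with ratios of 0.789 (0.630 to 0.977) and 0.999 (0.789 to 1.25).

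*Irf8* was highest in the Siglech and Ccr9 group and high in NK cell-like cells. It reached 4106 CPM (3745 to 4492) in the 27 cells of the Siglech and Ccr9 group, 5.21 times the level of microglia-like cells (4.75 to 5.70), and *Mef2c* there was 535 CPM (410.0 to 686), with a ratio of 0.846 (0.648 to 1.08). *Sall1*, *Maf* and *Bhlhe41* had 0 UMIs in this group, at a floor of 25.9 CPM. *Irf8* stood at 2462 CPM (2057 to 2924) in the 10 of these cells with under 0.25% of their UMIs from microglial markers. That marker list holds *Siglech*, which had 171 UMIs in the 27 cells, against 1 of *Tmem119* and 6 of *P2ry12*. The share in this group thus reads *Siglech* as well as microglial RNA. No suffix held 20 cells of the group, and 10, 9 and 6 of the 27 came from suffixes 4, 5 and 6. In NK cell-like cells *Irf8* stood at 1039 CPM (966 to 1115) and at 1091 CPM (966 to 1229) in those with little microglial RNA, whereas *Spi1*, *Maf*, *Mef2a*, *Mef2c* and *Runx1* in the latter lay between 28.0 and 79.9 CPM. Granulocyte-like cells with little microglial RNA had 3 *Irf8* UMIs, 36.7 CPM (7.58 to 107).

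**Figure D2:**
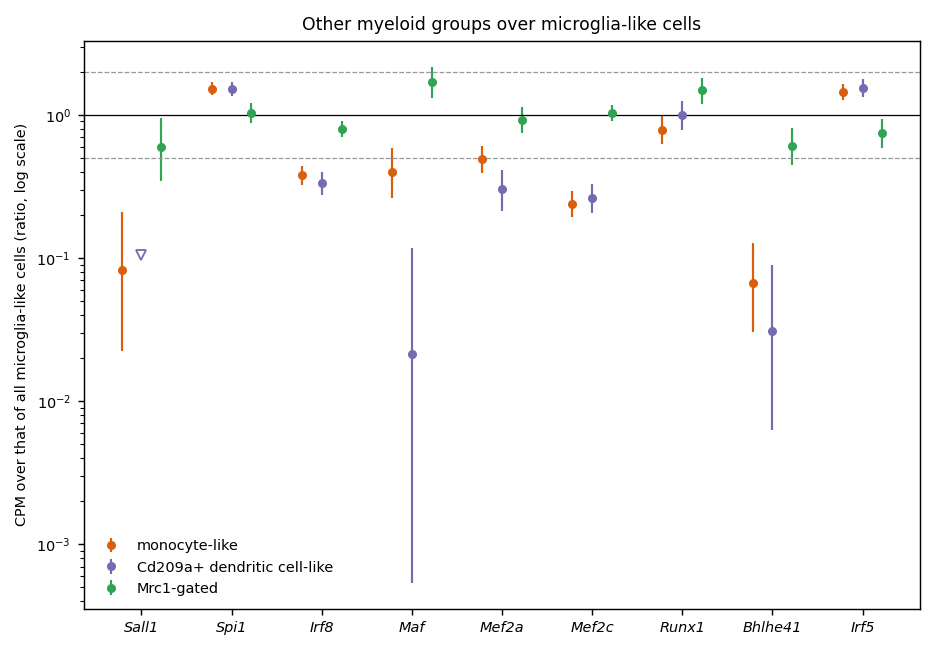
Ratio of CPM in monocyte-like, *Cd209a*-positive dendritic cell-like and Mrc1-gated cells over all microglia-like cells (vertical axis, log scale) for each of the 9 genes (horizontal axis). Bars are 95% exact conditional intervals, dashed lines mark 2-fold, and the open triangle is the upper limit for *Sall1* with 0 UMIs. 6 genes lie under the lower dashed line in both monocyte-like and dendritic cell-like cells, and 0 do in Mrc1-gated cells.

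In Mrc1-gated cells *Maf* and *Runx1* were higher and *Sall1*, *Bhlhe41*, *Irf8* and *Irf5* lower than in microglia-like cells. 0 of the 9 genes differed at least 2-fold from microglia-like cells in either direction, beside 6.12% of all genes lower and 4.57% higher. At such shares a count of 0 of 9 is no result about these genes. That count depends on the cells taken: in the 11 with little microglial RNA *Sall1* (0 UMIs), *Mef2c* (ratio 0.4658), *Irf5* (0.457) and *Bhlhe41* (0.453) were past 2-fold lower. *Sall1* was so after thinning to 1000 UMIs (0.360) and without suffix 6 (0.4675), and *Maf* was past 2-fold higher after thinning (2.01) and with stricter gates (2.07). *Maf* stood at 178 CPM (137 to 227) against 104, a ratio of 1.71 (1.32 to 2.18), with 207 CPM in suffix 5 and 135 in suffix 6. The highest suffix of microglia-like cells had 139 CPM, so that the value of suffix 6 fell within their range. *Runx1* stood at 257.5 CPM (208 to 315), a ratio of 1.49 (1.2 to 1.82), with 245 and 314 CPM in suffixes 5 and 6, both above every suffix of microglia-like cells. *Sall1* was lower at 46.6 CPM (27.1 to 74.6), ratio 0.597 (0.348 to 0.957), with 29.5 and 71.8 CPM, and *Bhlhe41* was lower at 131.5 CPM, ratio 0.607 (0.447 to 0.805). *Irf8* and *Irf5* were 0.799 (0.699 to 0.910) and 0.744 (0.583 to 0.936) of the microglia-like level, and the intervals of *Spi1*, *Mef2a* and *Mef2c* held 1. Without suffix 5 the ratio of *Maf* was 1.24, that of *Sall1* 0.993 and that of *Irf5* 0.551. The 11 Mrc1-gated cells with little microglial RNA had 0 *Sall1* UMIs, at a floor of 73.6 CPM, and a *Mef2c* level of 295 CPM (152 to 514). The part of microglial RNA in the values of Mrc1-gated cells was not tested. These cells were also deeper than microglia-like cells, at a median of 4682 UMIs against 2904, and were not compared at like depth. Apoe and Ccl2 high cells were close to them in *Ccl2* and *Ccl12* (1.70% of UMIs against 1.29%) and in microglial markers (0.771% against 0.666%). That state had *Sall1* at 49.3 CPM, *Irf8* at 695, *Irf5* at 202, *Runx1* at 219 and *Bhlhe41* at 188. Its *Maf* (66.9 CPM, 55.5 to 79.8) and *Mef2c* (469, 438 to 502) were below the Mrc1-gated values, with intervals apart. The intervals of the other genes overlapped.

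Within microglia-like cells, *Sall1*, *Maf* and *Mef2c* were lower in the Apoe high state than in homeostatic cells, whereas the other 6 genes had ratios between 0.850 and 1.06 over cells of all depths. *Sall1* stood at 47.7 CPM (43.0 to 52.7) in Apoe high against 90.5 CPM (87.4 to 93.7) in homeostatic cells, a ratio of 0.527 (0.473 to 0.586). Over the 6 suffixes it ran from 41.8 over a median of 47.8 to 63.7 CPM in Apoe high and from 81.4 over 91.0 to 103 CPM in homeostatic cells. The suffixes of the 2 states did not overlap. *Maf* was 70.4 CPM (64.7 to 76.4) against 122 CPM, ratio 0.576 (0.527 to 0.629), with suffix values of 56.3 to 84.7 (median 69.9) against 100.7 to 158 (median 119). *Mef2c* was 440.0 CPM (426 to 455) against 706, ratio 0.623 (0.601 to 0.645), with 375 to 479 against 619 to 772. These 3 of 9 genes were at least 1.5-fold lower, beside 8.06% of all genes, and 0 were at least 1.5-fold higher, beside 7.34%. The ratios of *Irf8*, *Bhlhe41*, *Spi1*, *Mef2a*, *Irf5* and *Runx1* were 1.03, 0.934, 0.850, 0.874, 0.858 and 1.06. The median log2 ratio was -0.22 over the 9 genes and -0.05 over all genes. The microglial marker list that gated the cells moved along with them, from 1.77% of UMIs in homeostatic to 0.918% in Apoe high cells, and median depth from 2948 to 1538 UMIs. The part of either in these ratios was not tested. Classical monocyte genes made up 0.00544% of UMIs in Apoe high and 0.00105% in homeostatic cells. The study calls a cluster high in *Spp1* and *Apoe* glioma-associated microglia, and another glioma-associated macrophages derived from bone marrow. Whether Apoe high cells include cells of the latter kind was not tested.

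The difference held at like depth but changed in size with it. Among cells of 1000 to 2000 UMIs, the ratio of *Sall1* in Apoe high over homeostatic cells was 0.356 (0.284 to 0.445), and among cells of 4000 UMIs or more it was 0.731 (0.602 to 0.883). *Maf* went from 0.442 to 0.727 and *Mef2c* from 0.535 to 0.694 over the same range, with every interval below 1. *Spi1* (0.807 to 0.881), *Mef2a* (0.790 to 0.842) and *Irf5* (0.736 to 0.901) were also below 1 at each depth. The interval of *Irf5* held 1 at 2000 to 3000 UMIs. Among cells of 4000 UMIs or more *Irf5* was 0.736 (0.657 to 0.822), close to *Sall1* and *Maf*, and no member was 1.5-fold lower. *Bhlhe41* was 0.576 (0.520 to 0.638) in the shallowest cells and 1.09 (0.978 to 1.22) in the deepest, and *Runx1* went from 0.806 to 1.26. Cells of 1000 to 2000 UMIs were 2617 of the 3896 Apoe high cells. After thinning to 500 UMIs, 4.20% (3.85 to 4.59) of homeostatic and 1.92% (1.52 to 2.41) of Apoe high cells had a *Sall1* UMI, and 29.3% and 19.6% had a *Mef2c* UMI. For *Irf8* the thinned shares were 33.1% and 34.9%. The cells under 1000 UMIs that were left out had *Sall1* at 40.3 CPM (35.5 to 45.6).

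**Figure D3:**
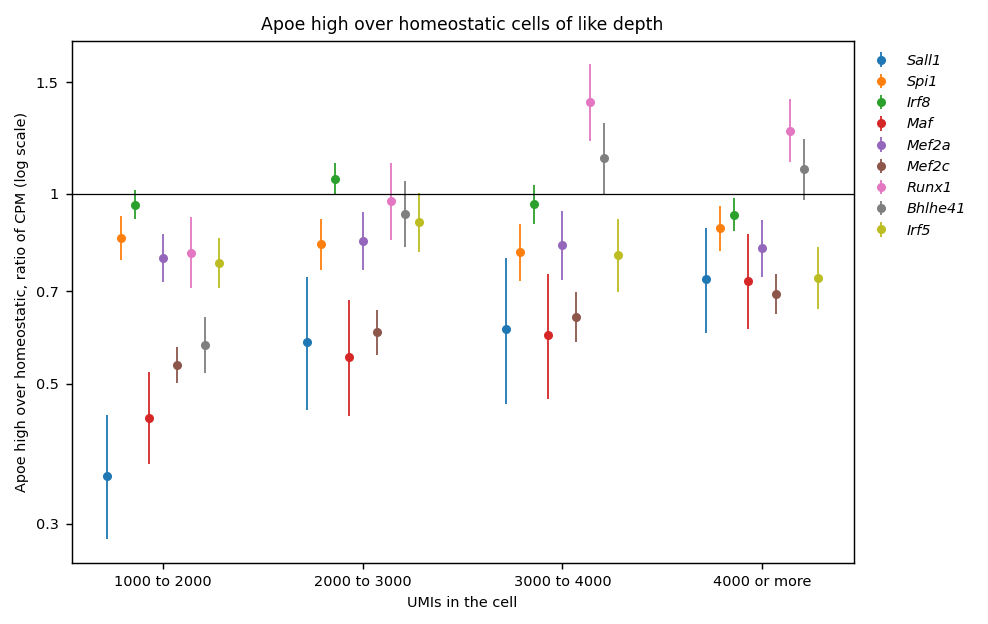
Ratio of CPM in Apoe high over homeostatic microglia-like cells (vertical axis, log scale) among cells of like depth (horizontal axis, UMIs per cell), for each of the 9 genes in colour. Bars are 95% exact conditional intervals. *Sall1*, *Maf*, *Mef2c*, *Spi1*, *Mef2a* and *Irf5* lie below 1 at each depth, and *Irf8* lies between 0.925 and 1.06.

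Over all microglia-like cells the same 3 genes fell as the share of *Apoe*, *Spp1* and *Ifitm3* UMIs rose, and they were not alone in this. Where these made up under 0.1% of a cell's UMIs, in 6281 cells, *Sall1* stood at 89.7 CPM, *Maf* at 127 and *Mef2c* at 720. Where they made up 10% or more, in 662 cells, the levels were 33.0 CPM (23.8 to 44.6), 50.2 (38.7 to 64.2) and 359 (327 to 393). *Mef2c* and *Maf* were lower in each further bin of the 8, although *Maf* stood at 74.7 and 74.5 CPM in bins 5 and 6. *Sall1* was above the bin before in bins 3 (86.6 against 82.1 CPM) and 6 (58.3 against 57.5 CPM), both within overlapping intervals. From the first bin to the last *Irf5* went from 305 to 223 CPM, *Mef2a* from 325 to 229, *Bhlhe41* from 244 to 158 and *Spi1* from 430 to 368. *Runx1* began at 166 and ended at 159 CPM with higher values between. *Irf8* moved between 740 and 842 CPM and showed no such order. A share this high lowers the CPM of every other gene by itself, and with gate genes left out of the total the ratios of Apoe high over homeostatic cells were 0.557 for *Sall1*, 0.609 for *Maf* and 0.658 for *Mef2c*. When microglia-like cells were instead ordered by their share of microglial markers into 5 groups of about equal size, *Sall1* went from 56.6 CPM in the lowest to 94.5 in the highest, *Maf* from 72.5 to 131, *Mef2c* from 508 to 721, and *Runx1* the other way from 206 to 144. *Bhlhe41* at 216.5 and 221 CPM and *Irf8* at 761 and 811 CPM differed little between the ends.

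**Figure D4:**
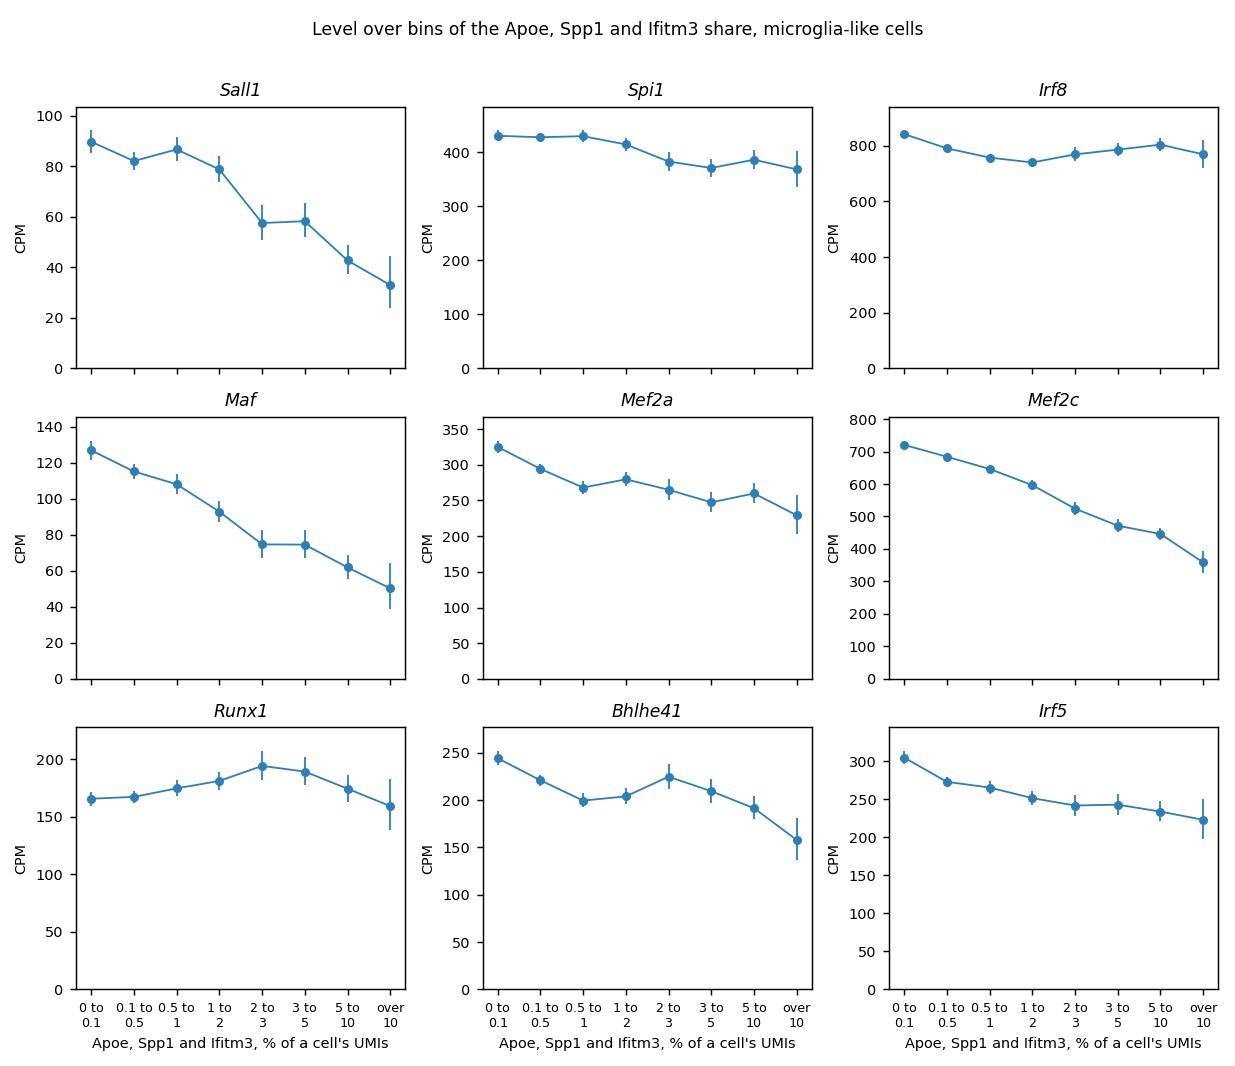
Level of each of the 9 genes (vertical axis, CPM, from 0) in microglia-like cells binned by the percent of their UMIs from *Apoe*, *Spp1* and *Ifitm3* (horizontal axis). Points are bins of 662 to 7743 cells and bars 95% Poisson intervals. *Sall1*, *Maf* and *Mef2c* go down over the bins to 33.0, 50.2 and 359 CPM, and *Irf8* stays between 740 and 842. *Irf5*, *Mef2a*, *Bhlhe41* and *Spi1* also end lower than they start, at 223, 229, 158 and 368 CPM.

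Among the other states, *Maf* had a ratio below 1 in each, and so did *Sall1*, *Spi1*, *Mef2a* and *Mef2c*. Of these, the intervals of *Sall1* in interferon (0.666 to 1.02) and cycling cells (0.698 to 1.13) held 1. That of *Spi1* in Apoe and Ccl2 high cells (0.895 to 1.04) held it too. Over all genes the median log2 ratio was -0.15 in Apoe and Ccl2 high, -0.13 in MHC class II high and -0.10 in interferon cells. It was -0.01 in Lpl high, -0.03 in Ccl2 and Ccl12 high and 0.22 in cycling cells. The *Spi1* values in Apoe and Ccl2 high, MHC class II high and interferon cells were -0.05, -0.16 and -0.14, near that median. *Runx1* had a ratio above 1 in each of these states. It was lower than in homeostatic cells in 2 of 5 suffixes in MHC class II high and in cycling cells. In Lpl high cells *Maf* was at 47.7 CPM (36.2 to 61.6), ratio 0.390 (0.296 to 0.505), and *Sall1* at 50.9 CPM, ratio 0.563 (0.431 to 0.724). These 2 of 9 genes were at least 1.5-fold lower, beside 13% of all genes, and 0 were higher by as much, beside 12.3%. In Apoe and Ccl2 high cells *Sall1*, *Maf* and *Mef2c* were at least 1.5-fold lower, with ratios of 0.545, 0.548 and 0.664 (2 of the 9 genes without suffix 1 or 6, and also without the gene limit, after thinning and with stricter gates, among other settings), beside 11.3% of all genes, and 0 were higher, beside 7.72%. In MHC class II high cells only *Maf* was, with a ratio of 0.486 (0.398 to 0.588), beside 7.87% lower and 4.88% higher of all genes, and 286 of these 461 cells came from suffix 1. In interferon cells *Maf* had a ratio of 0.646, beside 11.5% of all genes lower, and *Runx1* stood at 243 CPM (217 to 272) against 158 in homeostatic cells, ratio 1.54 (1.37 to 1.73), beside 10.6% higher. The suffix values of *Runx1* ran from 147 to 303 CPM in interferon cells and from 140.4 to 191 in homeostatic cells and overlapped. In cycling cells *Maf* had a ratio of 0.571, beside 10.9% lower and 30.4% higher of all genes. The counts of 1 of 9 in MHC class II high, interferon and cycling cells are near the shares over all genes. They are no result about the 9 genes as a set. Without suffix 3, 4 or 6 *Maf* in interferon cells was no longer 1.5-fold lower.

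In cells high in *Ccl2* and *Ccl12* alone, *Runx1* was higher and *Sall1* and *Maf* were lower than in homeostatic cells, each by less than 1.5-fold. 0 of 9 were at least 1.5-fold lower, beside 0.558% of all genes, or higher, beside 2.72%, shares at which 0 of 9 is no result about these genes. *Runx1* stood at 217 CPM (206 to 228), ratio 1.37 (1.30 to 1.45), and was above the homeostatic value of the same suffix in 6 of 6 suffixes. *Sall1* was 71.2 CPM (65.2 to 77.7), ratio 0.787 (0.715 to 0.865), and *Maf* had a ratio of 0.815 (0.752 to 0.883), both lower in 6 of 6 suffixes. *Spi1*, *Irf8*, *Mef2a*, *Mef2c*, *Bhlhe41* and *Irf5* had ratios of 0.953, 0.956, 0.857, 0.875, 1.04 and 0.890. Over cells of all depths, *Spi1* and *Irf8* had ratios between 0.850 and 1.08 in the Apoe high, Lpl high and Ccl2 and Ccl12 high states. The ratios of *Bhlhe41* and *Irf5* lay in that band too. At like depth *Spi1* was 0.807 in Apoe high cells of 3000 to 4000 UMIs. *Irf8* was 1.12 in Lpl high cells of 4000 UMIs or more.

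**Figure D5:**
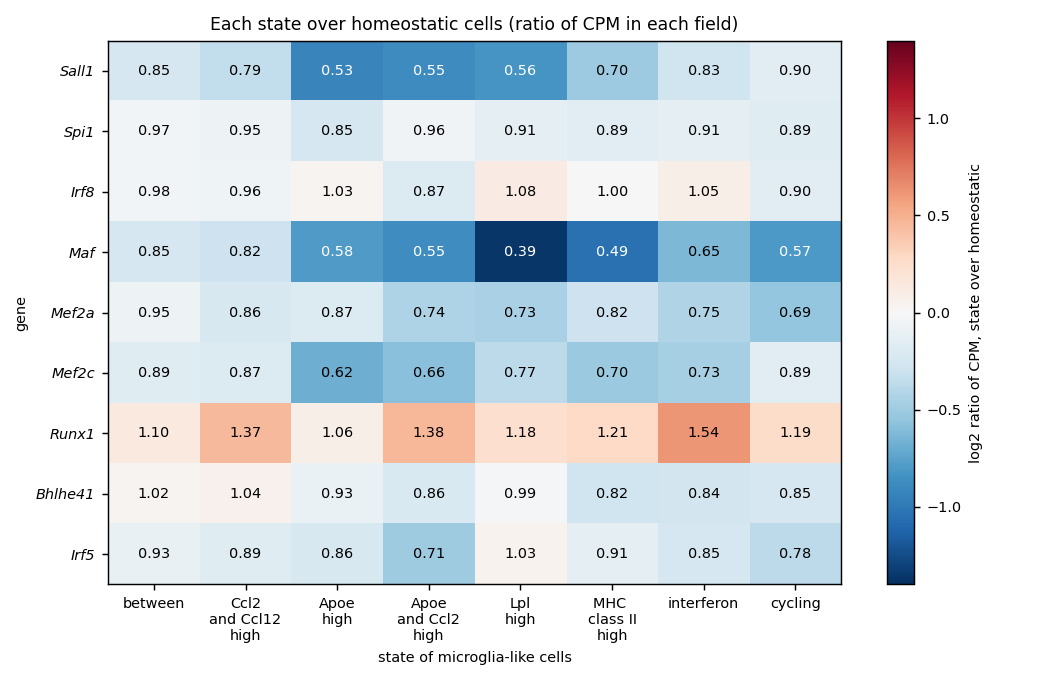
Ratio of CPM in each state of microglia-like cells (columns) over homeostatic cells for each of the 9 genes (rows), with colour giving its log2. *Maf* is lower in all 8 columns, to 0.39 in Lpl high cells, and *Sall1*, *Spi1*, *Mef2a* and *Mef2c* are below 1 in all 8 too. The median log2 ratio over all genes was also below 0 in Apoe and Ccl2 high, MHC class II high and interferon cells (-0.15, -0.13 and -0.10). *Runx1* is above 1 in all 8, to 1.54 in interferon cells, although in Apoe high cells its interval held 1 (0.9995 to 1.13). The *Runx1* ratio there was 0.806 at 1000 to 2000 UMIs and 0.974 at 2000 to 3000 UMIs, and in Lpl high cells it was 0.938 at the latter depth.

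A list of 72 other transcription factors of myeloid cells gives the setting of these values. Of the 54 with at least 20 CPM in either group, 11 were at least 2-fold higher and 14 at least 2-fold lower in monocyte-like than in microglia-like cells with intervals that left out 1. Of all genes, 20.6% were that much higher and 19.7% that much lower, counted without regard to intervals. The count of higher factors is near that share and is no result about the list. The highest ratios belonged to *Tfec* (46 UMIs against 24, or 74.0 against 0.283 CPM), *Runx3* (62.7 against 0.260 CPM), *Bhlhe40* (109 against 2.34 CPM) and *Runx2* (20.9 against 0.472 CPM). *Runx2* was also read in setting the Siglech and Ccr9 group apart. The lowest belonged to *Klf2* (ratio 0.106, 0.0945 to 0.119), *Etv5* (0.115), *Klf6* (0.151) and *Smad7* (0.153), the last an inhibitor of TGF-beta signalling.

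In Mrc1-gated cells 3 of 50 listed factors were at least 2-fold higher, among them *Irf7* (76.7 against 22.6 CPM) and *Ets2* (60.3 against 24.3), and 5 were lower. Over all genes the shares, without regard to intervals, were 4.57% higher and 6.12% lower. The lowest ratios were those of *Ski* (0.332), *Batf3* (0.401), *Hhex* (0.433) and *Etv5* (0.472). In Apoe high cells 4 of 51 were at least 1.5-fold higher than in homeostatic cells and 8 lower, beside 7.34% and 8.06% of all genes. The counts of higher factors in Mrc1-gated and Apoe high cells are near the shares over all genes. They are no result about the list. *Irf7*, the interferon-response factor, had the highest ratio at 6.71 (5.57 to 8.12), followed by *Mitf* at 1.87, *Cebpb* at 1.74 and *Id2* at 1.60. The gate for these cells counts *Ifitm3*, which the study lists among its interferon-response genes. The part of the gate in the ratio of *Irf7* was not tested. *Etv5* had the lowest at 0.428 (0.378 to 0.483), followed by *Batf3* at 0.522, *Egr2* at 0.538 and *Irf1* at 0.554. *Sall3*, of the family of *Sall1*, was 12.6 against 21.5 CPM, a ratio of 0.586 (0.471 to 0.722).

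The genes whose levels over the 18 gated groups of at least 20 cells were most like those of a member were found by Pearson's r of log2(CPM + 10), among genes not used in a gate. For *Bhlhe41* they included *Lgmn* (r = 0.985), which encodes a lysosomal protease, and *Usp2* (0.985). For *Sall1* they were *Lpcat2* (0.988), *Serpinf1* (0.979) and *Cst3* (0.977). For *Mef2a* they were *Tpst2* (0.959), *Dusp6* and *Mafg*, for *Mef2c* *Plxdc1* (0.946), *Lair1* and *Lman2l*, and for *Maf* *0610040J01Rik* (0.938), *Cradd* and *Arap3*. Those of *Spi1* included *Fam49b* (0.909) and *Reep3*, and *Irf5* was closest to *Rsu1* (0.895), *Nrros* and *Rnpepl1*. *Irf8* was closest to *Pik3r4* (0.946), *Tmco6* and *Pex16*, which are low genes led by the Siglech and Ccr9 group, and *Runx1* to *Ptprj* (0.898), *Rnf130* and *Gapvd1*. The groups share libraries and free RNA, so that r is a description.

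On the mm10 annotation *Sall1* spans chr8:89027235-89044162, *Irf8* chr8:120736358-120756694 and *Maf* chr8:115682942-115707794, on 1 chromosome but apart from each other. *Irf8* overlaps *Gm20388* on the same strand, and UMIs that the counting could have given to either are uncertain. The other 8 genes overlap no gene of the matrix on their own strand, and *Maf*, *Mef2a*, *Runx1*, *Bhlhe41* and *Irf5* overlap a gene on the other strand.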

How the data were processed

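Cells of 6 mice were sequenced with 10x Chromium 3′ chemistry, and the authors deposited 1 matrix of raw UMI counts per gene and barcode, made with Cell Ranger 3.1 on mm10 and aggregated over libraries with no batch correction. Per the labels, Seurat 3.1.5 was used downstream. Groups were taken from the sample labels alone, which name no barcode suffix, so the 2 groups of mice were not compared. The study's own supplement lists cell numbers per library that equal the barcodes per suffix, and this was not used to assign groups. The libraries were sequenced in batches whose members are not named, and the effect of batch cannot be told apart from that of suffix. The filters of the study left 38751 of 40411 barcodes, which differs from the number of analysed cells in its text. The study also took out a cluster of choroid plexus epithelial cells after an initial clustering. The 38751 barcodes still hold 259 choroid plexus epithelium-like cells, and whether these make up the whole difference was not tested. Per the study's methods doublets were gated out in the sort, and on the counts only the maximum of 2500 genes limited them.

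Groups were gated on UMIs of marker genes, with none of the 9 members among them, in Python 3.11.15 with numpy 2.4.6 and scipy 1.17.1, and counts were summed per group (CPM). A member was counted as lower or higher at 2-fold between types and 1.5-fold between states, among genes of at least 20 CPM in either group. With 1 pooled sample there was no test. All 9 members were named, up to 3 most similar genes per member, and of the factor list up to 4 highest and 4 lowest ratios in monocyte-like and Mrc1-gated cells. The factors named in Apoe high cells, with *Sall3*, were chosen after their values were seen, as was the Siglech and Ccr9 group. The members, marker lists and factor list were chosen with earlier results of these data known. Intervals were checked only on simulated Poisson counts. These have no spread between cells or suffixes, so the check says nothing about such spread. Promoters are from RefSeq (GRCm38.p6) and positions from GENCODE of the same build. Some genes that the rule named are not reported here.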

Additional observations from a re-analysis of the deposited data

Results flagged for a closer look

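2 of 99 sets of suffix values (a gene in a group with 4 or more suffixes) had 1 suffix far from the others by Dixon's ratio, where chance gives about 1 in 20. *Spi1* in MHC class II high cells was 539.9 CPM in suffix 4, which held 25 such cells, against 399 CPM in the next highest suffix. *Runx1* in Lpl high cells was 215.4 CPM in suffix 4 against 188 CPM in the next highest.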

How the results depend on the processing

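Over 722 recomputed values, 647 stayed within the counting-error interval of the original ratio or within 1.5 times of a count. The spread between suffixes was not the measure here. Of the rest, 73 moved and 2 changed direction. The 2 were *Irf8* in Apoe high cells (0.995 with overlapping states) and *Runx1* in Lpl high cells (0.938 in cells of 2000 to 3000 UMIs). Restriction to 2000 to 3000 UMIs, leaving gate genes out of the total and keeping the Siglech and Ccr9 cells were chosen after seeing the data. Causes were not tested. No paired analysis was possible because groups were taken from labels, which name no barcode suffix, and no test was run.

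In monocyte-like cells, without the gene limit the ratios were 0.339 (*Sall1*), 0.548 (*Irf8*), 0.362 (*Mef2c*) and 0.256 (*Bhlhe41*), with the Siglech and Ccr9 cells kept 0.928 (*Irf8*) and 0.297 (*Mef2c*), in cells with little microglial RNA 0 (*Sall1*), 0.189 (*Mef2c*) and 0.00836 (*Bhlhe41*), and after thinning to 1000 UMIs 0.607 (*Runx1*). In Mrc1-gated cells with little microglial RNA they were 0 (*Sall1*), 1.29 (*Spi1*), 0.685 (*Mef2a*), 0.4658 (*Mef2c*), 1.98 (*Runx1*) and 0.457 (*Irf5*), after thinning 0.941 (*Irf8*), 1.24 (*Mef2c*) and 0.984 (*Irf5*), and with stricter gates 0.660 (*Mef2a*). In Apoe high cells *Sall1* was 0.418 after thinning, 0.469 with stricter gates and 0.445 as a mean over cells, *Maf* was 0.525 after thinning, and *Mef2c* was 0.6001 with suffixes weighted equally and 0.658 without gate genes in the total.

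The number of members at least 1.5-fold lower in MHC class II high cells was 2 after thinning, 3 with equal suffixes and 2 at 2000 to 3000 UMIs. In interferon cells it was 0 without the gene limit or without gate genes, and 2 with stricter gates or at 2000 to 3000 UMIs. In cycling cells it was 2 without the gene limit, at 10% mitochondrial UMIs, with gates on shares or as a mean over cells, and 3 after thinning. With each suffix left out in turn these counts ran from 1 to 2, 0 to 1 and 1 to 2, that of Apoe and Ccl2 high cells from 2 to 3, and ratios from 0.468 to 0.993 (*Sall1*), 1.24 to 1.87 (*Maf*) and 0.551 to 0.820 (*Irf5*) in Mrc1-gated cells and from 0.256 to 0.537 (*Maf*) and 0.0116 to 0.0981 (*Bhlhe41*) in monocyte-like cells.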
